A study of Mus musculus with 5 samples.

Results

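The IFITM and Ifi27 families were followed through 5 genes, *Ifitm1*, *Ifitm2*, *Ifitm3*, *Ifi27* and *Ifi27l2a*, which were chosen by symbol and are 5 of the 27726 genes common to the 5 count matrices. The matrices hold single-cell RNA of lung group 2 innate lymphoid cells (ILC2s, lymphocytes that lack antigen receptors and make type 2 cytokines) from female wild-type C57BL/6 mice, sorted as Lin- CD45+ ST2+ CD127+ Thy1.2+ cells and pooled from 5 mice per library. One group had 1 library of naïve ILC2s, from mice with neither tumour nor activation. The ta-non-activated group had 2 libraries, of ILC2s taken fresh 2 and 3 weeks after TC1 tumour cells were placed under the skin. The ta-activated group had 2 libraries, of ILC2s from tumour-bearing mice of the same weeks that were then cultured for 7 days with rhIL-2, rmIL-33 and TSLP at 10 ng/mL each. No naïve cells were cultured, so culture, the cytokines and activation of tumour-associated cells cannot be told apart, and each week is also the replicate.

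The interferon-induced transmembrane (IFITM) proteins are small membrane proteins that hinder the fusion of enveloped viruses with the cell, with *Ifitm3* the best known for restricting influenza virus in the lung. The Ifi27 family encodes small hydrophobic proteins that interferon induces in many tissues and that locate to mitochondria or the nuclear envelope. Type I interferons act through the receptor chains Ifnar1 and Ifnar2 on genes with an interferon-stimulated response element (ISRE), while interferon-gamma acts through its own receptor on genes with gamma-activated sites (GAS). *Ifit1* served as a reference interferon-induced gene, and *Gzmb* and *Gzmc*, which encode granzymes, as reference genes of cytotoxic cells.

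The 5 genes lie in 2 clusters on GRCm38 (GENCODE M21). *Ifitm2* (ENSMUSG00000060591, chr7:140954837-140955987, minus strand), *Ifitm1* (ENSMUSG00000025491, chr7:140967221-140969825, plus strand) and *Ifitm3* (ENSMUSG00000025492, chr7:141009586-141010770, minus strand) are neighbours, with 11233 bases between *Ifitm2* and *Ifitm1* and 39760 between *Ifitm1* and *Ifitm3*. *Ifi27* (ENSMUSG00000064215, chr12:103434211-103440239, plus strand) and *Ifi27l2a* (ENSMUSG00000079017, chr12:103442167-103443680, minus strand) stand 1927 bases apart. *Ifitm2* overlaps Gm45717 on the same strand, a gene with 11 counted molecules among naïve cells and 0 in the other 4 libraries, and reads that match both genes may have been left out by the counting. In the last 500 bases of the annotated transcripts, where a 3' library takes its reads, 3.33% of the 50-base stretches of *Ifitm1*, 4.43% of those of *Ifitm2* and 7.76% of those of *Ifitm3* also occur in another *Ifitm* gene. No 91-base stretch of the 3 genes is shared. *Ifi27* and *Ifi27l2a* share no stretch of 50 or 91 bases with the other genes compared.

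Promoter sequences of RefSeq (GRCm38.p6, 250 bases before to 50 bases after the start) were matched for *Ifitm1*, *Ifitm2*, *Ifitm3* and *Ifit1*, and 2 motifs were searched on both strands: the ISRE as GAAA, any 2 bases and GAAA, and the GAS as TTC, any 3 bases and GAA. The windows of 30 bases that hold the ISRE matches are shown, 5′ to 3′ along the gene, because the 3 *Ifitm* genes varied together over cells while their promoters differ in this motif. Capitals mark the matches, and in *Ifit1* they are on the opposite strand.
Ifitm2: ccaccaacagGAAAAGGAAAttgctagaga
Ifitm3: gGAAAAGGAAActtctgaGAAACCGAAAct
Ifit1: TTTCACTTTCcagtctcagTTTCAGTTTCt
The *Ifitm2* window (chr7:140955988-140956017, minus strand) holds 1 match, 46 to 37 bases before the start. The *Ifitm3* window (chr7:141010714-141010743, minus strand) holds 2 matches, at bases 3 to 12 and 20 to 29 after the RefSeq start, and a GAS match at bases 14 to 22 overlaps the second of them. That window lies inside the annotated gene. The *Ifit1* window (chr19:34640785-34640814, plus strand) holds 2. The *Ifitm1* promoter holds neither motif in its 300 bases. An ISRE match was found in 3.44% of the 32851 RefSeq promoters and 2 or more in 0.225%, while a GAS match was found in 8.30%. Of a list of 40 interferon-induced genes, 30 had a RefSeq promoter and 16 of these held an ISRE match. A match is a stretch of letters and does not show that a factor binds there.

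Barcodes with 200 or more genes and under 5% mitochondrial counts were kept. There were 6389 such naïve cells, at a median depth of 4517 unique molecular identifiers (UMIs, counted molecules), 1823 and 1601 ta-non-activated cells at weeks 2 and 3 with medians of 16090 and 4396, and 2895 and 3822 ta-activated cells with medians of 13636 and 12296.5. The libraries shared 1 to 8 kept barcodes per pair. The week 3 ta-non-activated library stood apart from its label: 13 ILC2 marker genes summed to 1579 counts per 1000000 UMIs (CPM) against 7490 to 11235 CPM in the other 4 libraries, and 9 T cell marker genes summed to 6746 CPM against 305 to 1238 CPM. All 9 T cell genes were present in every library, and 8 NK or ILC1 genes summed to 608 CPM at week 3 against 0.744 to 123 CPM elsewhere. A list of 6 mast cell or basophil genes summed to 200 and 87.0 CPM in the ta-activated libraries of weeks 2 and 3. Its sums were 32.1 CPM among naïve cells and 1.29 and 82.7 CPM in the fresh libraries of weeks 2 and 3. *Ms4a2* of this list had no UMI in any library, and *Fcer1a* had none in any tumour-associated library, fresh or ta-activated. *Mcpt8* had no UMI in the naïve and fresh libraries and was counted in both ta-activated libraries. *Cd200r3* was higher in both ta-activated than in both ta-non-activated libraries, at an edgeR log2 difference of 6.36. The part of cells with these genes in the members' levels was not tested. The members' log2 differences are also given without the week 3 ta-non-activated library.

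*Ifitm1*, *Ifitm2*, *Ifitm3* and *Ifi27l2a* were higher in both ta-activated libraries than in the other 3, by 2.48-fold or more between libraries of the same week, and *Ifi27* was not. Levels of a gene are its UMIs over all UMIs of a library, in CPM, with exact Poisson 95% intervals in brackets that cover counting error only. *Ifitm1* was at 8.61 CPM (7.63 to 9.68) among naïve cells and 9.18 CPM (8.18 to 10.3) among fresh tumour-associated cells of week 2. No UMI was counted in the 1601 fresh cells of week 3, where the floor of 3 counts is 0.319 CPM. It was at 429 CPM (424 to 434) in the week 2 and 99.7 CPM (97.3 to 102) in the week 3 ta-activated library. Both ta-activated libraries were above the other 3, and the naïve and week 2 fresh intervals overlapped. The ratio of ta-activated to ta-non-activated was 46.7 at week 2 and at least 312-fold higher at week 3, against that floor.

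*Ifitm2* was at 10.2 CPM (9.18 to 11.4) in naïve ILC2s and at 21.1 (19.5 to 22.7) and 71.6 (66.3 to 77.3) in the fresh tumour-associated libraries of weeks 2 and 3. In the ta-activated libraries it was at 349 CPM (344 to 354) and 178 CPM (175 to 181). The order held with no overlap of intervals, and the activated-to-fresh ratio was 16.6 at week 2 and 2.48 at week 3.

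*Ifitm3* was at 17.9 CPM (16.5 to 19.5) in naïve ILC2s, 51.8 CPM (49.3 to 54.3) and 31.8 CPM (28.3 to 35.6) in the ta-non-activated libraries, and 884 CPM (876 to 892) and 691 CPM (685 to 698) in the ta-activated libraries. Its ratios in the separate weeks, 17.1 (16.3 to 17.9) and 21.7 (19.4 to 24.4), lay closer together than those of the other members, and its fresh level was higher at week 2 than at week 3, the reverse of *Ifitm2*.

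*Ifi27l2a* was at 7.69 CPM (6.76 to 8.70) in the naïve library, 2.05 CPM (1.59 to 2.59) and 51.6 CPM (47.1 to 56.4) in the ta-non-activated libraries, and 1527 CPM (1517 to 1537) and 3087 CPM (3073 to 3101) in the ta-activated libraries. The ratio was 746 (589 to 961) at week 2 and 59.8 (54.7 to 65.5) at week 3, and the fresh libraries differed 25.2-fold from each other.

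*Ifi27* did not follow this pattern. It was at 74.3 CPM (71.4 to 77.3) in naïve cells, 65.1 CPM (62.4 to 67.9) and 208 CPM (199 to 217) in the ta-non-activated libraries, and 69.6 CPM (67.5 to 71.8) and 49.9 CPM (48.2 to 51.7) in the ta-activated libraries. The activated-to-fresh ratio was 1.07 (1.015 to 1.13) at week 2 and 0.240 (0.227 to 0.254) at week 3. In the order of its levels, the naïve, week 2 ta-activated and week 2 fresh libraries were neighbours with overlapping intervals.

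**Figure D1:**
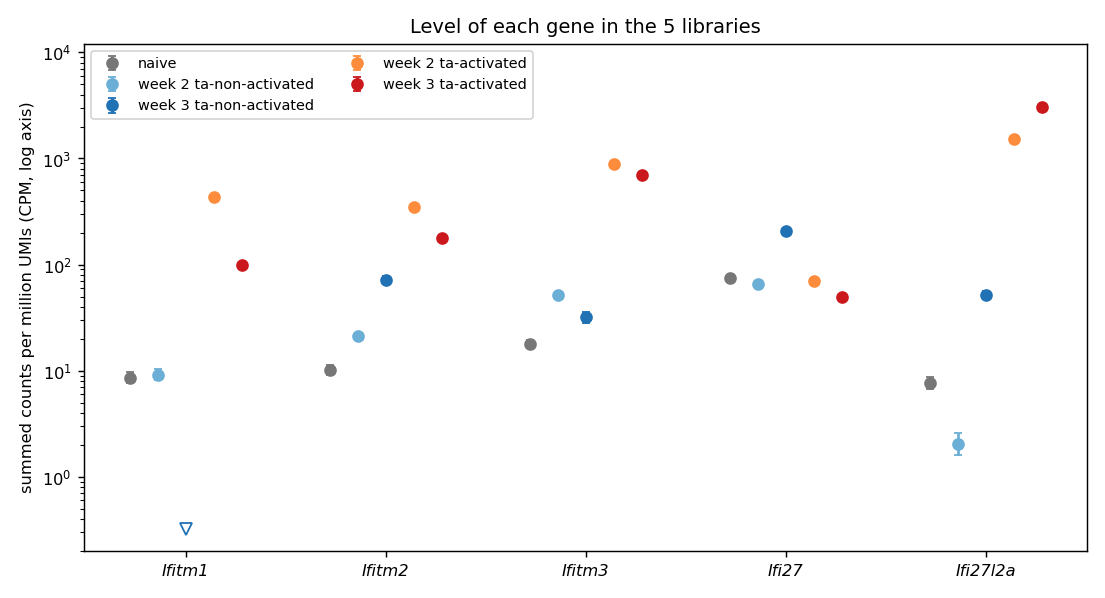
Summed CPM (log axis) of each gene in the 5 libraries, with exact Poisson 95% intervals as bars; the open triangle is the floor of 3 counts for *Ifitm1* in fresh cells of week 3, where no UMI was counted. *Ifitm1*, *Ifitm2*, *Ifitm3* and *Ifi27l2a* stand higher in both ta-activated libraries than in the other 3, while *Ifi27* is highest at 208 CPM in fresh cells of week 3.

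The design asks which genes differ between ta-activated and ta-non-activated ILC2s, 2 libraries against 2, and this was tested on the summed counts of each library with edgeR's quasi-likelihood test and Benjamini-Hochberg adjustment over 12643 genes. The log2 difference was 5.59 ± 2.13 (SE, n = 2 libraries per group) for *Ifitm1*, 2.49 ± 0.698 for *Ifitm2*, 4.10 ± 0.527 for *Ifitm3*, 6.45 ± 1.66 for *Ifi27l2a* and -1.22 ± 0.579 for *Ifi27*. The median over all genes tested was -0.02. None passed the edgeR threshold of 0.05: the adjusted p from edgeR was 0.298 for *Ifitm1*, 0.252 for *Ifitm2*, 0.243 for *Ifitm3*, 0.252 for *Ifi27l2a* and 0.362 for *Ifi27*. No gene of the 12643 passed, and 2120 had an unadjusted p under 0.05 in edgeR. With DESeq2, 1047 of 12575 genes with an adjusted p passed, and 4.48% of the 12575 passed as higher in ta-activated libraries. *Ifitm2*, *Ifitm3* and *Ifi27l2a* were among these, with DESeq2 adjusted p of 0.0120, 1.38e-10 and 3.91e-06, and *Ifitm1* and *Ifi27* did not pass, with DESeq2 adjusted p of 0.275 and 0.268. For 4 of the 5 members both ta-activated libraries lay above both ta-non-activated ones, against 32.3% of all genes tested, and the same 4 had an unadjusted edgeR p under 0.05 in that direction, against 9.32%. No member lay below in both, against 20.6%, and 11.9% of genes were 2-fold or more lower at week 2.

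With edgeR, genes were called only when either fresh tumour-associated library was left out. Without the week 3 ta-non-activated library edgeR called 513 genes, 1.75% of those tested being called higher, and *Ifitm3* and *Ifi27l2a* passed at log2 differences of 3.69 and 9.88, both with an adjusted p of 0.0465. Without the week 2 ta-non-activated library it called 1646 genes, with 6.01% called higher, and *Ifitm1*, *Ifitm3* and *Ifi27l2a* passed with adjusted p of 0.0439, 0.0292 and 0.0314. In that fit *Ifitm1* is set against a library with no UMI, so its fitted difference is no measure of size. *Ifi27* was at -0.36 without week 3 and at -1.72 without week 2, with adjusted p of 0.483 and 0.0509 in edgeR. In both fits the lone fresh library is assumed to vary like the ta-activated pair. Without either ta-activated library edgeR called no gene, with 508 and 494 genes at an unadjusted p under 0.05.

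The other genes of the pathway were taken from lists chosen with earlier results of these data known, so their counts are a description. Of the 40 interferon-induced genes 39 were tested, and all 39 lay above in both ta-activated libraries, against 32.3% of all genes tested. Of these, 32 had an unadjusted edgeR p under 0.05 in that direction, against 9.32% of all genes, and none passed the adjusted threshold. Their median log2 difference was 3.13, against -0.02 over all genes tested. Without the week 3 fresh library all 39 were again higher, with a median of 3.75 against 0.07 over all genes. The 5 of these genes with the highest summed level in the ta-activated libraries were *Isg15*, a ubiquitin-like protein that is attached to other proteins, *Bst2*, which tethers budding virus, *Psmb8*, an immunoproteasome subunit, *Ly6e* and *Ifit1*. Their log2 differences were 3.81 ± 1.12 for *Isg15*, 1.70 ± 0.334 for *Bst2*, 0.47 ± 0.335 for *Psmb8*, 1.21 ± 0.372 for *Ly6e* and 6.39 ± 1.17 for *Ifit1* (SE, 2 libraries against 2), and without the week 3 fresh library they were 5.96, 1.67, 0.39, 1.38 and 8.08. *Ifit1* was at 1.70, 1.505 and 10.2 CPM in the naïve, week 2 and week 3 fresh libraries and at 268 and 707 CPM in the ta-activated ones, so its order of the weeks after activation was that of *Ifi27l2a* and the opposite of that of the 3 *Ifitm* genes.

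Of 11 receptor and signalling genes 6 lay above in both ta-activated libraries, against 32.3% of all genes. An unadjusted edgeR p under 0.05 in that direction was found for 4, against 9.32% of all genes, and none was called. Their median log2 difference was 0.996, and 0.67 without the week 3 fresh library, where 9 of 11 were higher. *Irf7*, a factor that amplifies type I interferon, was at 6.83 and 26.6 CPM in the fresh libraries against 221 and 449 CPM in the ta-activated ones, while the interferon-gamma receptor chain *Ifngr1* was at 32.2 and 419 CPM against 45.5 and 44.9 CPM. The log2 difference of *Ifngr1* was -2.30, and 0.24 without the week 3 fresh library. Among 9 interferon genes *Ifnb1*, *Ifna1*, *Ifna2*, *Ifna4*, *Ifnl2* and *Ifnl3* had no UMI in any library, *Ifnk* and *Ifne* had at most 3, and *Ifng* had more. *Ifng* was at 3.61 and 21.9 CPM in the fresh libraries, at 9.43 CPM in the week 2 ta-activated library and at 0 in the week 3 ta-activated library, where 3 counts would be 0.0485 CPM.

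Close relatives of the members were scarce. *Ifitm5*, *Ifitm7* and *Ifi27l2b* stayed under 1 CPM in all 5 libraries. *Ifitm6* reached 5.28 CPM in the week 2 ta-activated library, with 303 UMIs, and lay under 0.2 CPM elsewhere. *Ifitm10* was highest in the naïve library at 3.40 CPM.

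To compare shares of cells across depths, cells with 2000 or more UMIs were each thinned to 2000 UMIs, which left out 242 naïve cells, 14 and 106 ta-non-activated cells and 73 and 108 ta-activated cells. Shares have exact Clopper-Pearson 95% intervals. *Ifi27l2a* was found in 62.0% (60.2 to 63.8) and 76.4% (74.96 to 77.7) of ta-activated cells at weeks 2 and 3, against 0.927% of naïve and 0.442% and 5.48% of ta-non-activated cells. *Ifitm3* was found in 46.1% (44.3 to 48.0) and 50.4% (48.8 to 52.1) of ta-activated cells and in 2.03%, 4.37% and 4.21% of the others in the same order. These were the widespread members after culture.

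*Ifitm2* was found in 22.8% and 14.7% of ta-activated cells against 1.53%, 2.16% and 9.57%, and *Ifitm1* in 10.6% and 4.39% against 0.211%, 0.387% and 0 of 1495 cells, which allows a share of up to 0.201% by the floor of 3 counts and up to 0.246% by the exact interval. *Ifi27* was found in 9.74% (8.68 to 10.9) and 7.89% (7.04 to 8.80) of ta-activated cells, against 13.0%, 13.4% and 32.0%. Its share in ta-activated cells was thus the lower one in both weeks, also where its summed level at week 2 was not. Unthinned, the shares in ta-activated cells were 21.6% and 9.52% for *Ifitm1*, 42.8% and 33.9% for *Ifitm2*, 71.1% and 77.4% for *Ifitm3*, 43.1% and 35.9% for *Ifi27* and 73.3% and 83.3% for *Ifi27l2a*. No cell type in these libraries is known to lack the 5 genes, so the share given by free RNA could not be measured.

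**Figure D2:**
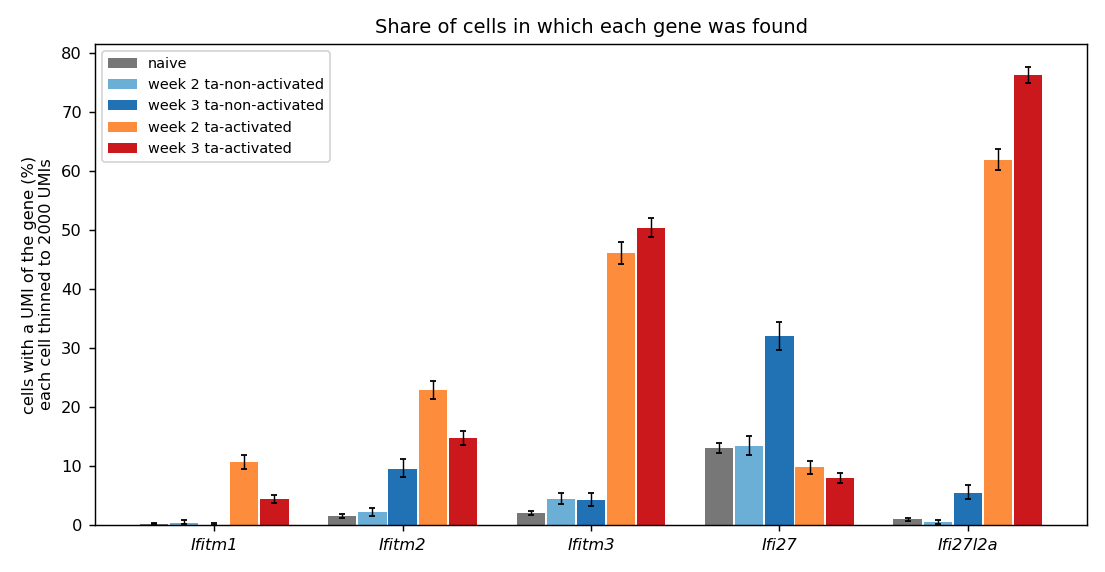
Share of cells (%) with a UMI of each gene after every cell was thinned to 2000 UMIs, by library, with exact Clopper-Pearson 95% intervals as bars. *Ifi27l2a* and *Ifitm3* were found in 46.1% to 76.4% of ta-activated cells, *Ifitm1* in 4.39% to 10.6%, and *Ifi27* had its highest share, 32.0%, in fresh cells of week 3.

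Most cultured cells carried at least 1 of the 5 genes. At 2000 UMIs a cell, 5123 of 6147 naïve cells, 1462 of 1809 and 871 of 1495 ta-non-activated cells carried none of the 5 genes, against 479 of 2822 and 384 of 3714 ta-activated cells. All 5 were found in 8 and 3 ta-activated cells and in no fresh cell. The 3 *Ifitm* genes were found together in 148 of 2822 cells (5.24%) at week 2 and 59 of 3714 (1.59%) at week 3.

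**Figure D3:**
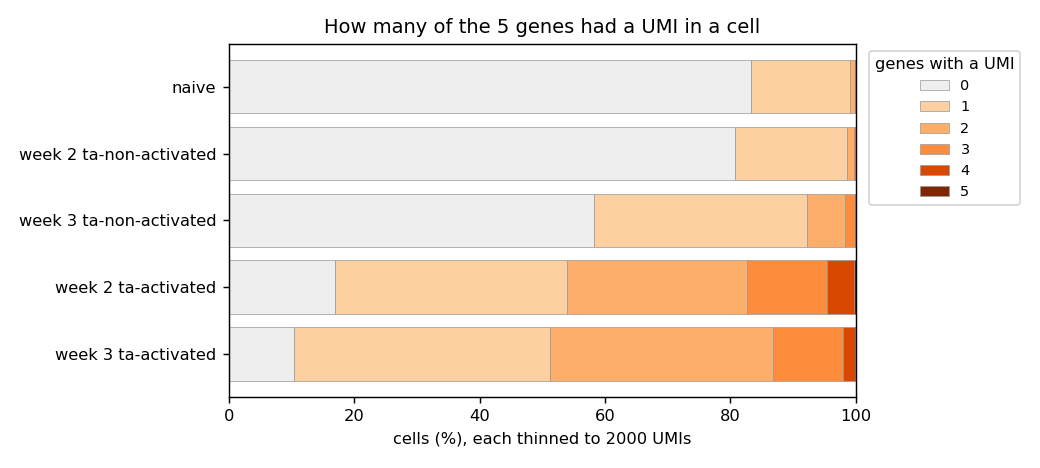
Share of cells (%) by how many of the 5 genes had a UMI after thinning to 2000 UMIs, 1 bar per library. Cells with none make up 479 of 2822 and 384 of 3714 cells in the ta-activated libraries and most of the cells in the other 3.

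Within the ta-activated libraries the *Ifitm* genes varied together over cells. Correlations are Pearson's r over the cells of 1 library with 2000 or more UMIs, on ln(1 + counts per 10000 UMIs), over 2822 cells at week 2 and 3714 at week 3; cells of a library share its preparation and each value shares the total of its cell, so r is a description and has no p. *Ifitm1* and *Ifitm2* had r = 0.457 and 0.310, *Ifitm1* and *Ifitm3* 0.375 and 0.253, and *Ifitm2* and *Ifitm3* 0.454 and 0.413. After thinning, these were 0.37 and 0.18, 0.31 and 0.22, and 0.39 and 0.35. Of cells with a UMI of *Ifitm1*, 61.9% at week 2 and 43.6% at week 3 also had *Ifitm2*, against 18.2% and 13.4% of cells without. For *Ifitm3* the corresponding shares were 77.6% and 83.4% against 42.4% and 48.9%.

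*Ifi27* and *Ifi27l2a*, though neighbours in the genome, did not vary together, with r = -0.17 at week 2 and -0.04 at week 3. *Ifi27l2a* had r between -0.02 and 0.12 with the *Ifitm* genes.

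By r over the cells of the ta-activated libraries, *Ifit1* was a weak guide to all 5 genes. With *Ifit1*, r at weeks 2 and 3 was -0.06 and -0.04 for *Ifitm1*, -0.12 and -0.13 for *Ifitm2*, 0.09 and 0.06 for *Ifitm3*, -0.20 and -0.10 for *Ifi27*, and 0.14 and -0.05 for *Ifi27l2a*. The gene most like *Ifit1* was *Ifit3*, at 0.667 and 0.699. *Ifit1* itself was lower in deep cells, with r = -0.40 and -0.22 against the log of the cell's total UMIs, whereas *Ifitm2* and *Ifi27* were higher there, with 0.21 and 0.21 for *Ifitm2* and 0.21 and 0.16 for *Ifi27*. When cells were thinned to 2000 UMIs, 46 of 50 correlations of the members with one another, *Ifit1*, *Gzmb* and *Gzmc* moved by under 0.1. The other 4 moved by more. The part of depth in the correlations with *Ifit1* was not tested beyond this.

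**Figure D4:**
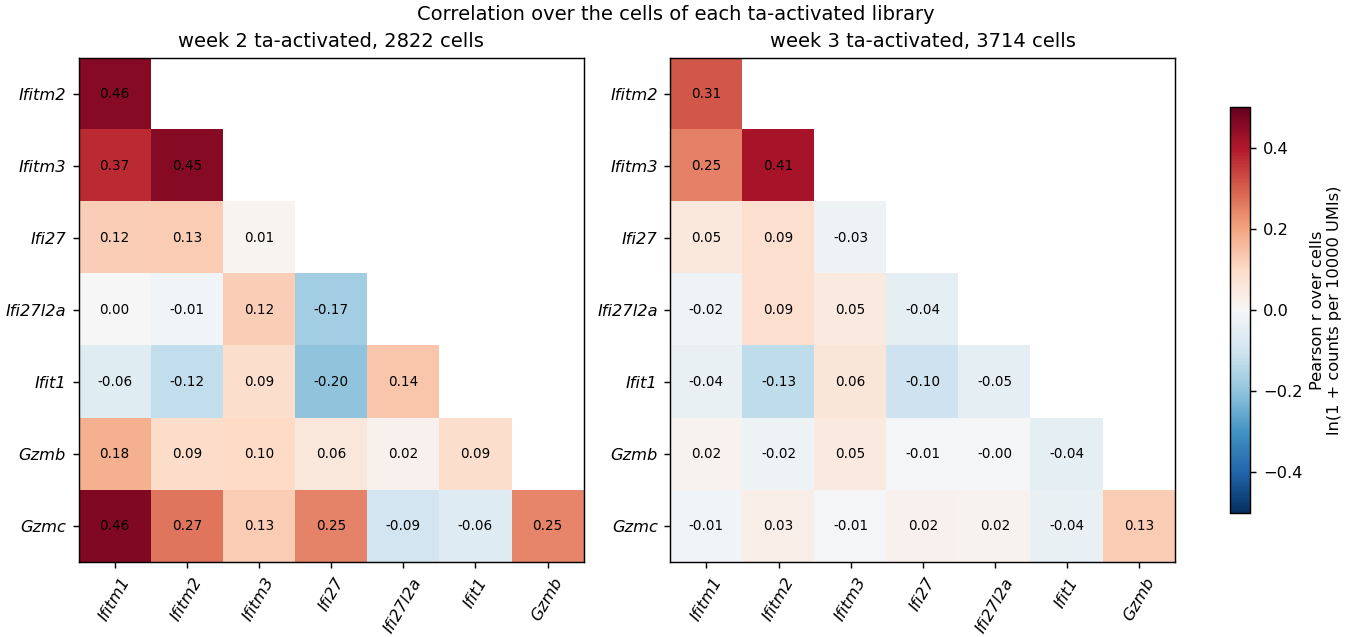
Pearson's r over the cells of the week 2 (2822 cells) and week 3 (3714 cells) ta-activated libraries, on ln(1 + counts per 10000 UMIs), for each pair among the 5 genes, *Ifit1*, *Gzmb* and *Gzmc*. Pairs among the 3 *Ifitm* genes run from 0.253 to 0.457, the pair *Ifitm1* and *Gzmc* stands at 0.464 at week 2 and -0.01 at week 3, and the row of *Ifit1* runs from -0.20 to 0.14.

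Summed levels were also taken by the *Ifit1* count of the cell. At week 2, cells with no *Ifit1* UMI after thinning (1744 cells) had *Ifi27l2a* at 1242 CPM, those with 1 (507 cells) at 2141 and those with 2 or more (571 cells) at 2528 CPM. *Ifitm3* was at 790.1, 1106 and 1190.3 CPM in the same cells. *Ifi27* was at 76.2, 61.1 and 39.5 CPM. At week 3, over 1583, 785 and 1346 cells, *Ifi27l2a* was at 3224, 2989 and 2933 CPM an order opposite to that of week 2, and *Ifitm3* was at 682, 702 and 701.5 CPM. *Ifi27* was at 55.5, 45.1 and 43.9 CPM there, the last pair with overlapping intervals. *Ifitm2* was lower with more *Ifit1* in both weeks, at 359.9, 339 and 294 CPM and at 213, 188 and 112 CPM. The median depth of these cells was 17457, 11505 and 8899 UMIs at week 2 and 14909, 12719 and 10982.5 at week 3.

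**Figure D5:**
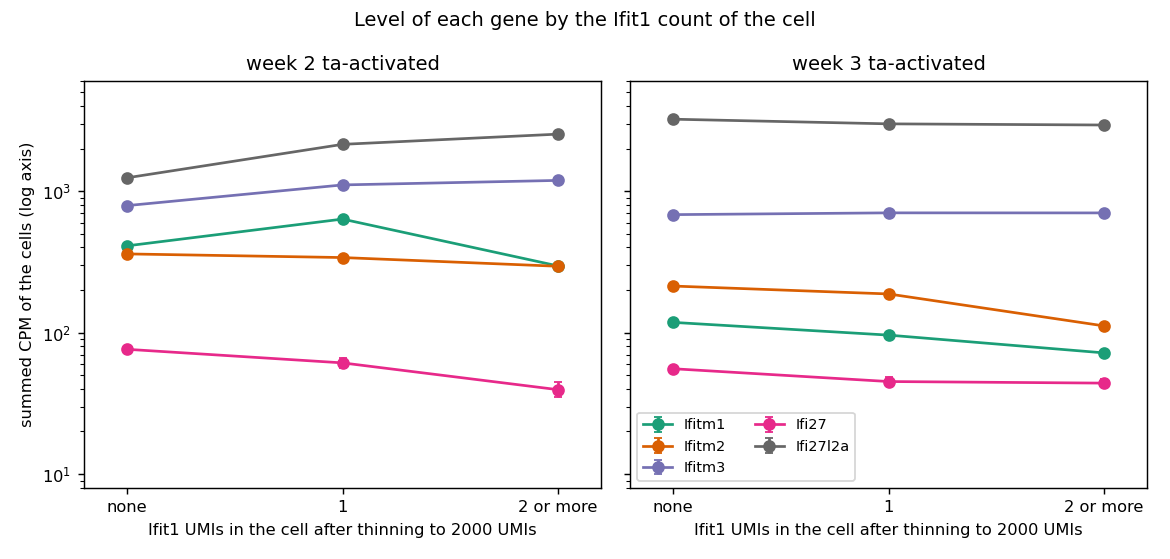
Summed CPM (log axis) of each gene in cells of the ta-activated libraries with no, 1 or 2 or more *Ifit1* UMIs after thinning to 2000 UMIs, with exact Poisson 95% intervals as bars, most of them smaller than the points. *Ifi27l2a* goes from 1242 to 2528 CPM at week 2 and from 3224 to 2933 CPM at week 3, and *Ifi27* is lower in cells with *Ifit1* than in cells without at both weeks.

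With *Gzmb*, *Ifitm1* had r = 0.18 at week 2 and 0.02 at week 3, and the other 4 members lay between -0.02 and 0.10. With *Gzmc*, *Ifitm1* had r = 0.464 and -0.01. *Gzmc* was at 979 CPM in the week 2 ta-activated library and at 1.07 CPM in the week 3 one. At week 2, 68 of 2822 cells with 10 or more *Gzmc* UMIs held 40.8% of the *Ifitm1* UMIs: *Ifitm1* was at 4584 CPM (4494 to 4674) there and at 264 CPM (260 to 268) in the other 2754 cells, with median depths of 23125.5 and 13750.0 UMIs. *Ifitm2* was at 1155 against 317 CPM, *Ifitm3* at 1594 against 856 CPM and *Ifi27* at 243 against 62.7 CPM, while *Ifi27l2a* was at 595 against 1564 CPM. Without these cells *Ifitm1* and *Ifitm2* had r = 0.38, *Ifitm1* and *Ifitm3* 0.36, and *Ifitm1* and *Gzmb* 0.06.

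The variance of the thinned counts over cells divided by their mean (Fano factor, near 1 for counting noise alone) was 15.0035 at week 2 and 7.13 at week 3 for *Ifitm1*, 4.06 and 2.76 for *Ifitm2*, 6.32 and 4.03 for *Ifitm3*, 6.82 and 6.69 for *Ifi27l2a* and 1.18 and 1.12 for *Ifi27*. The factor depends on the mean, so genes of different means cannot be ranked by it. At the *Ifi27* means of 0.111 and 0.0875 UMIs a cell it can lie near 1 even where levels differ between cells. The means of *Ifitm1* were 0.783 and 0.168 UMIs a cell, and its week 2 value includes the cells with 10 or more *Gzmc* UMIs. The median ta-activated cell had 11.4 and 24.4 *Ifi27l2a* counts per 10000 UMIs at weeks 2 and 3, with 90th percentiles of 50.7 and 66.8. For *Ifitm3* the medians were 2.39 and 3.45 and the 90th percentiles 28.8 and 18.8.

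The genes whose pattern over cells was most like each member, ordered by the lower of the r values of the 2 ta-activated libraries among 9218 genes with a UMI in 5% or more of the cells of both, differed between members. For *Ifitm3* they were *Ifi44*, *Bst2*, *Isg20*, *Casp4* and *Casp1*, with r from 0.13 to 0.20; the first 3 are in the interferon-induced list and *Casp4* and *Casp1* encode inflammatory caspases. For *Ifitm1* the leading gene was *Fcer1g*, a signalling chain of Fc and natural killer receptors, at 0.41 and 0.15. *Ssr2*, *Clnk*, *Runx3* and *Gngt2* followed, with r from 0.12 to 0.20 at week 2 and from 0.086 to 0.090 at week 3. For *Ifitm2* they were *Anxa2*, at 0.24 in both, *Fdps*, *Vim*, *Fabp5* and *Thy1*. For *Ifi27* they were *Cks1b*, at 0.15 in both, *H2afz*, *Hsp90aa1*, *Stmn1* and *Ccdc34*, of which *Cks1b* and *Stmn1* are known from dividing cells. For *Ifi27l2a* they were *Lsp1*, at 0.15 and 0.17, *S100a6*, *S100a10*, *S100a11* and *Gstp3*.

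In the naïve library, 7 of the 6389 cells held 271 of the 279 *Ifitm1* UMIs, with 8 to 83 UMIs each, and the other 6382 cells held 8, at most 1 each. Among fresh tumour-associated cells of week 2, 8 of 1823 cells with 3 to 129 UMIs held 290 of 305. These cells were picked after their values were seen, and their median depth was 10806 UMIs against 4516 in the naïve rest and 25060.0 against 15987 at week 2. The 12 genes of the cell cycle list summed to 3667 CPM in the 7 naïve cells and 73.0 CPM in the rest, and to 4328 against 463 CPM at week 2. Of the 7 naïve cells 3 had 2 or more of these genes, against 74 of the other 6382, and of the 8 cells at week 2 all 8, against 512 of the other 1815. At week 3, where *Ifitm1* had no UMI, they summed to 1338 CPM over all fresh cells. The ILC2 list summed to 4749.9 against 7842 CPM and to 4476 against 11287 CPM. The T cell list summed to 964 against 1239 CPM in the naïve library and to 823 against 301 CPM at week 2. *Ifitm3* was at 159 against 17.5 CPM and at 791 against 46.1 CPM in the same cells, and *Ifi27l2a* at 378 against 6.53 CPM in the naïve ones and at 0 UMIs in the week 2 ones. When cells with 3 or more T cell or 3 or more endothelial genes were left out, 104 of the 279 naïve *Ifitm1* UMIs remained. Of the 305 at week 2, 24 remained. The marker genes were counted with no thinning here, so deep cells such as these reach the limit more readily. The part of depth in this loss was not tested.

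*Ifitm2* and *Ifitm3* of the naïve library were higher in cells with endothelial genes, though these cells held a minority of their UMIs. In 37 naïve cells with 3 or more of 9 endothelial marker genes after thinning, *Ifitm2* was at 468 CPM (373 to 580) and *Ifitm3* at 842 CPM (713 to 987), against 6.36 and 10.6 CPM in 3750 cells with none of these genes. The 37 cells held 27.0% and 27.9% of the UMIs of the respective gene. At week 2 the 138 fresh cells with 2 or more cell cycle genes had *Ifitm3* at 207 CPM and *Ifitm2* at 63.2 CPM, against 23.9 and 14.4 CPM in 1449 cells with none.

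At week 3 fresh cells with T cell genes held more of the *Ifi27l2a* and *Ifitm2* UMIs than of all UMIs. The 917 of 1495 cells with 3 or more of the 9 T cell genes after thinning were 61.3% of the cells and held 77.3% of all UMIs, 90.3% of the *Ifi27l2a* UMIs and 94.9% of the *Ifitm2* UMIs, at 61.2 and 88.4 CPM and a median depth of 6014 UMIs. In 125 cells with no T cell gene, at a median depth of 3245 UMIs, *Ifi27l2a* had no UMI, with a floor of 6.95 CPM for 3 counts, and *Ifitm2* was at 34.7 CPM (19.4 to 57.3), with 13 of its 15 UMIs in 1 cell. *Ifi27* was at 228 CPM (217 to 239) against 148 CPM (114 to 189). When cells with 3 or more T cell genes or 3 or more endothelial genes were left out of every library, with no thinning, the week 3 fresh levels were 6.87 CPM for *Ifitm2*, 15.5 for *Ifitm3*, 144 for *Ifi27* and 9.73 for *Ifi27l2a*, and the activated-to-fresh log2 differences became 7.90 for *Ifitm1*, 4.05 for *Ifitm2*, 4.92 for *Ifitm3*, 8.90 for *Ifi27l2a* and -1.17 for *Ifi27*, with no gene called by edgeR and 1480 genes at an unadjusted p under 0.05. This removal took 62.8% of the week 3 fresh cells and 25.8% of the week 2 ta-activated cells. In the week 2 ta-activated library 10137 of the 24596 *Ifitm1* UMIs remained, at 290 against 429 CPM, while *Ifi27l2a* was at 1709 against 1527 CPM. In the week 3 ta-activated library *Ifitm1* was at 96.6 against 99.7 CPM. The part of cells with T cell genes in the fresh or ta-activated levels beyond this was not tested.

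Fresh cells with *Ifit1* were few. At week 3, 21 ta-non-activated cells with 1 *Ifit1* UMI after thinning had *Ifi27l2a* at 372 CPM (272 to 496), and 6 cells with 2 or more had it at 879 CPM (625 to 1202), against 44.0 CPM in 1468 cells without. It was counted in 9 of the 21 and 4 of the 6 cells, with at most 10 and 15 UMIs in a cell. Most *Ifi27l2a* UMIs of this library lay in cells with T cell genes, as given above. How far those cells overlap the cells with *Ifit1* was not tested. *Ifi27* was at 379.95 CPM (279 to 505) and 541 CPM (347 to 805) against 204 CPM. *Ifitm2* was at 97.0 CPM (50.1 to 169) in the 21 cells, an interval that covers the 71.5 CPM of cells without *Ifit1*. These intervals cover counting error only and leave out the spread between so few cells. At week 2 there were 8 cells with 1 *Ifit1* UMI, of which 1 held all 27 of their *Ifi27l2a* UMIs and 1 held 45 of their 49 *Ifitm3* UMIs. No *Ifitm1* UMI fell in these cells.

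Between single libraries, which allow no test, members were read against the genes at 20 CPM or more in either library, with 1 CPM added to each level before the 2-fold limit was applied. The naïve matrix names another Cell Ranger version in its header than the tumour-associated ones. In every ratio or share against naïve, the counting version therefore cannot be told apart from the group. At week 2, 4 of 5 members were 2-fold or more higher in ta-activated than in fresh cells, against 15.2% of genes, and at week 3 again 4 of 5, against 19.2%, while *Ifi27* was 2-fold or more lower at week 3, against 16.4%. Against naïve ILC2s the same 4 were 2-fold or more higher in ta-activated cells of weeks 2 and 3, where 19% and 18.3% of genes were higher by that much and 29% and 25.8% lower. Their ratios to naïve were 49.8 and 11.6 for *Ifitm1*, 34.0 and 17.4 for *Ifitm2*, 49.3 and 38.6 for *Ifitm3* and 199 and 402 for *Ifi27l2a*. *Ifi27* was at 0.937 and 0.672 of its naïve level.

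Among the fresh libraries, *Ifitm3* was 2.89-fold higher at week 2 than in naïve ILC2s, the 1 member past the limit of 3 at that level, against 23.8% of genes higher and 35.2% lower. *Ifitm2* was 2.06-fold higher without the added CPM and fell short of the limit with it. At week 3, *Ifitm2*, *Ifi27* and *Ifi27l2a*, 3 of 4, were 2-fold or more above naïve, against 20.5% of genes higher and 29.6% lower. The same 3 were 2-fold or more above week 2, against 18.6% higher and 12.1% lower, at ratios of 3.40, 3.19 and 25.2. Between the ta-activated libraries *Ifi27l2a* was 2.02-fold higher at week 3 than at week 2, against 3.16% of genes, and *Ifitm1* was at 0.233 of its week 2 level, against 2.31% of genes 2-fold or more lower.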

How the data were processed

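The authors made 10x Genomics 3' libraries and counted reads with Cell Ranger (version 3.0.2 and genome build GRCm38 in the submitters' processing notes, with Seurat version 3 listed for analysis). Cell Ranger 6.0.0 stands in the header of the naïve matrix and 3.0.2 in those of the tumour-associated ones. The annotation is not given in the sources used here. The deposited values are raw counts of UMIs per gene and barcode, with no normalization, and total counts were 9910201 to 71126524 UMIs per library. Genes outside the 27726 common ones were left out. No doublet caller was run. The values of 1 listed gene are not reported here.

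The members and gene lists were chosen with earlier results of these data known. Named beside the members are the partners and relatives, list genes a sentence needs, the 5 interferon-induced genes with the largest summed ta-activated CPM and, per member, the 5 genes most like it. Cells were filtered at 200 genes and 5% mitochondrial counts, thinned at random to 2000 UMIs for shares, and summed per library for the test, with the naïve library, a group of 1, kept out of it. The test was edgeR 4.0.16 (R 4.3.3, with filterByExpr, TMM, quasi-likelihood F test and Benjamini-Hochberg threshold of 0.05). It was also run on simulated counts, in which libraries of a group differed by random spread alone. That run therefore does not measure how the test fares with these fresh libraries, which differed in marker genes. SEs are the log2 difference over the root of F. The 2 replicates of a group are its 2 weeks, each of cells pooled over mice, so p-values measure only the spread between these samples. DESeq2 1.42.0, other filters, no TMM, all 5 libraries in 1 fit, a replicate block and each library left out were alternatives. Other steps used Python 3.11.15, numpy 2.4.6, scipy 1.17.1, pandas 2.3.3 and matplotlib 3.10.9.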

Additional observations from a re-analysis of the deposited data

Results flagged for a closer look

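Of 20 genes named in the report and read for it, 6 were higher with activation in 1 week and lower in the other, each with 1 pair of libraries a week, and the difference between the weeks was not tested. *Ifi27* had a ratio of ta-activated to ta-non-activated CPM of 1.07 at week 2 and 0.240 at week 3. Its direction at week 2 depended on the cells used. Its ta-activated and ta-non-activated levels there were 65.6 and 65.0 CPM with all deposited barcodes. Without cells with T cell or endothelial genes they were 59.1 CPM (56.6 to 61.7) and 67.7 CPM (64.6 to 70.9), the opposite direction. In the week 3 ta-non-activated library, where T cell genes were high, its level was 208 CPM with all cells and 144 CPM without those cells. *Gzmc* had a ratio of 707 at week 2 and 0.716 at week 3. *Ifngr1* had a ratio of 1.41 at week 2 and 0.107 at week 3. *Ifng* had a ratio of 2.61 at week 2, and at week 3, with no UMI after activation, the ratio was at most 0.00221 against a floor of 3 counts. *Ifitm10* had a ratio of 6.23 at week 2, from 4 fresh and 43 ta-activated UMIs, and 0.0967 at week 3, from 11 and 7. *Ifitm5* had no UMI in fresh cells of week 2, which makes its ratio at least 7.34 there, and a ratio of 0.395 at week 3, from 5 and 13 UMIs.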

How the results depend on the processing

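With edgeR the comparison of ta-activated with ta-non-activated libraries called 0 genes in all cells, without TMM (2234 genes at an unadjusted p under 0.05), with no filter on low counts (2436), with all 5 libraries (2120), with all deposited barcodes (2200), with a mitochondrial limit of 10% (2214) and without cells with T cell or endothelial genes (1480). DESeq2 called 1047 genes, with log2 differences past the threshold of 2.50 for *Ifitm2*, 4.10 for *Ifitm3* and 6.45 for *Ifi27l2a*. Leaving out 1 library gave 0 to 1646 calls, and log2 differences of 4.24 to 16.50 for *Ifitm1* (the highest against a library with no UMI), 1.92 to 3.41 for *Ifitm2*, 3.69 to 4.70 for *Ifitm3*, -1.72 to -0.36 for *Ifi27* and 5.54 to 9.88 for *Ifi27l2a*; the calls came where a ta-non-activated library was left out, and the cause was not tested. No member changed sign under any of these fits. The week served as a replicate block in 1 fit, which called 0 genes (1505 at an unadjusted p under 0.05) and gave 7.01 for *Ifitm1*, 2.58 for *Ifitm2*, 4.17 for *Ifitm3*, -1.08 for *Ifi27* and 7.60 for *Ifi27l2a*. The week is the time after tumour implantation, and no label ties libraries of 1 week to the same mice or batch. Deviations from the group means had a correlation of -0.0619 over 12643 genes. Each group gives only 1 difference between weeks, so this value cannot decide whether libraries of a week are paired.

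Of 25 levels, 18 stayed within their counting interval with all barcodes, 19 with the 10% limit, 4 without cells with T cell or endothelial genes and 6 as a mean over cells. The 4 members other than *Ifi27* stayed above the other 3 libraries in both ta-activated libraries under every selection of cells. Of 25 shares, 4 stayed within their interval at 2 or more UMIs, 4 when thinned to 1000 UMIs and 2 unthinned. Of 50 correlations, 47 moved by under 0.1 as Spearman's rho, 46 after thinning, 44 without *Gzmc* cells and 49 without cells with cell cycle genes. Ordered by the mean of both libraries, the genes most like a member kept 1 of 5 for *Ifitm1*, 4 for *Ifitm2*, 5 for *Ifitm3*, 3 for *Ifi27* and 2 for *Ifi27l2a*.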
